A study of Mus musculus with 32 samples.

Results

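The genes described here encode the FOXA forkhead factors, *Foxa1*, *Foxa2* and *Foxa3*, and the HNF4 nuclear receptors, *Hnf4a* and *Hnf4g*, which were taken by symbol from a table of 54233 rows, so that they make up 5 of 54233 genes. Their transcripts were followed in 32 RNA-seq samples of the mouse ES cell line KH2 (strain C57BL/6) taken 0, 2, 4, 8, 16, 24, 48 and 96 h after Dox was added (8 time points of 4 replicates). All samples carry the transgene TRE:GATA6-DSREd2, 1 copy in which a TET-responsive element drives GATA6 and the red fluorescent protein DsRed2 when Dox is present. The 0 h cells grew in 2i medium without Dox. Cells at 2, 4 and 8 h grew in serum-containing medium with 1 µg/ml Dox, and cells at 16, 24, 48 and 96 h had 12 h of Dox followed by serum medium without it. Medium and Dox therefore changed together after 0 h, and their effects on any comparison with 0 h cannot be told apart. The model is a culture of 1 engineered line. Replicate experiments were independent by the study's reporting statement, which does not say whether those of the RNA-seq were separate cultures, so p-values measure the spread between these samples, which may be technical in part.

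FOXA proteins are pioneer factors. They bind their sites in closed chromatin, and FOXA1 and FOXA2 act early in the formation of gut endoderm and liver, where FOXA3 joins them later. FOXA2 is also made in the primitive endoderm (PrE), the layer of the blastocyst that forms the yolk sac and that GATA6 specifies from cells that would otherwise become epiblast (Epi). HNF4A is a nuclear receptor of visceral endoderm, liver and intestine that switches on genes for apolipoproteins and clotting factors, and HNF4G is its close relative in the intestine.

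RefSeq start sites were found for 4 of the 5 genes (7 start sites in all, build GRCm38.p6), and the 250 bases before each were searched on both strands for short motifs of the factors in question. The GATA motif, spelled AGATAA, or also AGATAG, or also TGATAA, or also TGATAG, was present in 26.6% of 32817 such windows over all genes. The forkhead motif, spelled TGTTTAC, or also TATTTAC, or also TGTTTGC, was present in 9.72% of them, and the HNF4 motif, spelled CAAAGTCCA, or also CAAAGTTCA, in 0.716%. No motif overlaps another in these windows. The 3 windows that held a match are printed 5′ to 3′ on the strand of the gene, with the matched letters in capitals, because they show where a GATA or forkhead motif stands relative to the start of a gene whose transcript changed.
*Foxa1*, chr12:57546112-57546361, minus strand: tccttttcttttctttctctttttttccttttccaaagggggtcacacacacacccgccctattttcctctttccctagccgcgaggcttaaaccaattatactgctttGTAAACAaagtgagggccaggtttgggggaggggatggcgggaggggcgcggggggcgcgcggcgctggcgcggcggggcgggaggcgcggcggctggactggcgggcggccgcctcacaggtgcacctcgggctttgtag
*Foxa2*, start site 3, chr2:148045465-148045714, minus strand: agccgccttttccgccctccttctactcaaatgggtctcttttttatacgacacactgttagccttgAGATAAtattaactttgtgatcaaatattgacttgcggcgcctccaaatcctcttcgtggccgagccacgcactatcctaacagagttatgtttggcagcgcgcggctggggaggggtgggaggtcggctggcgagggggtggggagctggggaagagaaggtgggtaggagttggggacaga
*Hnf4a*, upstream start site, chr2:163506607-163506826, plus strand, without the last bases before the start: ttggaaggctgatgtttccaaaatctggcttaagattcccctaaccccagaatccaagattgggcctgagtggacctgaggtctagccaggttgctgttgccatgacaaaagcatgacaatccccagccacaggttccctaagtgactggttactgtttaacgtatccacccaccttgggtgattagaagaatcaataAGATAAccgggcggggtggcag
*Foxa1* held 1 forkhead match, TGTTTAC on the opposite strand, 141 to 135 bases before the start. *Foxa2* held 1 GATA match, AGATAA, 183 to 178 bases before start site 3 of 3, and *Hnf4a* held 1 GATA match, AGATAA, 52 to 47 bases before the upstream of its 2 start sites. The windows of *Foxa3* and of the other start sites of *Foxa2* and *Hnf4a* held none of these letters. The last 10 bases of the *Foxa1* stretch and the last 19 of the *Hnf4a* stretch lie in exons of other transcript models (GENCODE M21). A match describes the letters of a window and is not a bound site.

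In the GENCODE M21 annotation of the same build, *Foxa1* (ENSMUSG00000035451) lies at chr12:57540628-57546916, *Foxa2* (ENSMUSG00000037025) at chr2:148042877-148046969 and *Foxa3* (ENSMUSG00000040891) at chr7:19013284-19023538, all on the minus strand. *Hnf4a* (ENSMUSG00000017950) lies at chr2:163506808-163572910 and *Hnf4g* (ENSMUSG00000017688) at chr3:3508030-3658052, on the plus strand. The 5 genes are protein coding, with 3327, 2370, 2037, 4828 and 2630 bp of exon in the order named.

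Each sample held between 3190108 and 12301732 reads on genes (median 8870662.5). The transgene row held no read in any 0 h sample and 618 ± 110 normalized counts (SD, n = 4) at 2 h, and the row of endogenous *Gata6* went from 0.371 ± 0.432 at 0 h to 2067 ± 154 at 96 h. The summed levels of PrE markers and of ES cell markers moved in opposite directions. The summed level of 14 PrE markers was 4611 to 9260 normalized counts at 0 h and 412981 to 559722 at 96 h, and that of 10 ES cell markers was 38267 to 45486 at 0 h and 5331 to 5864 at 96 h. Abundant genes weigh most in such sums. At 0 h *Lamc1* alone had a mean of 5954, where the mean sum of the PrE markers was 7244. Replicates 1 and 2 and replicates 3 and 4 formed separate sets, as shown by the chi-square of their counts. Divided by its degrees of freedom, its median over pairs from the same time point was 1.57 inside a set (16 pairs) and 10.9 across sets (32 pairs). The widest pair inside a set, replicates 1 and 2 at 0 h, stood at 6.06, close to the lowest across sets (6.24). The closest pair inside a set stood at 1.20, little above sampling noise. No sample repeated another within that noise, and every sample was kept. Unless stated otherwise, the p-values below treat the 4 samples of a time point as independent, without regard to the sets. In bulk samples, fewer cells that express a gene and less RNA per cell cannot be told apart, and this holds for every level below.

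A normalized read count is the number of reads of a gene divided by the size factor of the sample. Of the 5 genes, 4 passed the filter on low values (4 or more samples with 10 or more normalized counts), whereas *Hnf4g* had no reads. *Foxa1*, *Foxa2* and *Hnf4a* passed that filter only through the time points at which they were high. A change was called with limma (lmFit, contrasts and eBayes with trend on log2(normalized count + 1), all 32 samples in the fit) at a Benjamini-Hochberg false discovery rate (FDR) below 0.1 over 15227 genes and a difference of at least 2 on this log2 scale. Without the pseudocount 2 would be 4-fold, but for a gene with few reads the pseudocount makes the difference smaller than the ratio of its counts. Against 0 h, called rises numbered 0 of the 4 tested genes at 2 h, where 2.0% of all genes were called higher, and 2 at 4 h (2.69%), 8 h (3.4%) and 16 h (4.03%). At 24 h they numbered 3 (4.85%), and 2 remained at 48 h (8.48%) as well as 96 h (9.28%). In the order of the time points, the FDR alone passed 44.8%, 48.5%, 49.1%, 53.3%, 61.8%, 73.4% and 76.4% of all genes, so that passing it without the fold does little to set a gene apart from the others.

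Between neighbouring time points the calls fell on different genes in turn. From 2 to 4 h no member was called (all genes called higher, 0.558%), although *Foxa1* and *Foxa2* passed the FDR, as did 24.4% of all genes in either direction. Their log2 differences of 1.90 and 1.76 were under the threshold, whereas the pooled reads gave ratios of 4.42 (95% counting interval 1.99 to 11.1) and 4.56 (1.95 to 12.4). Both would be called with a pseudocount of 0.5 (2.31 and 2.13), which leaves these steps undecided at this depth. *Foxa2* alone was called higher from 4 to 8 h (0.565%), *Foxa1* and *Hnf4a* from 8 to 16 h (0.499%), and *Hnf4a* from 16 to 24 h (0.525%) and from 24 to 48 h (2.51%). *Foxa1* was called lower from 24 to 48 h (1.41% of all genes called lower). From 48 to 96 h no member was called lower (2.4%). *Foxa1*, *Foxa3* and *Hnf4a* passed the FDR downward and *Foxa2* upward, as did 54.5% of all genes in either direction.

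**Figure D1:**
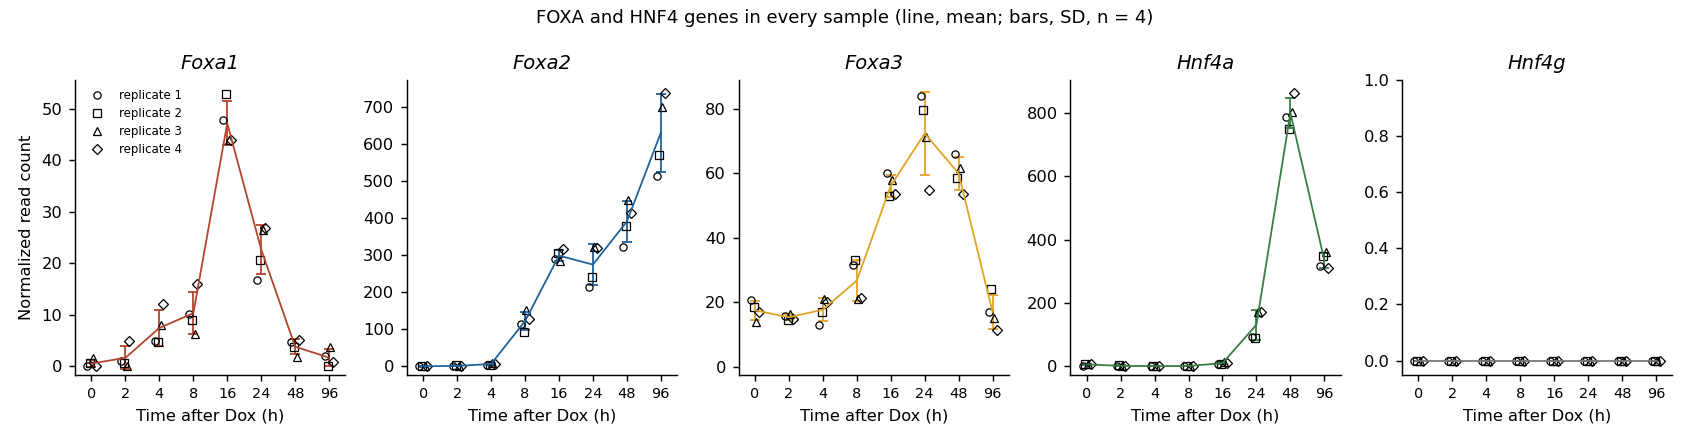
Normalized read counts (y axis, linear, a separate scale per gene) of *Foxa1*, *Foxa2*, *Foxa3*, *Hnf4a* and *Hnf4g* in every sample against hours after Dox (x axis, evenly spaced categories), with symbols for replicates, a line through the means and bars for SD (n = 4). *Foxa1* was highest at 16 h, *Foxa3* at 24 h, *Hnf4a* at 48 h and *Foxa2* at 96 h, and *Hnf4g* was at 0 in all 32 samples.

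*Foxa2* changed most of the FOXA genes. At 0 h its normalized counts were 0, 0, 0.806 and 1.89 in replicates 1 to 4, 2 reads in all, and at 2 h they were 0, 3.02, 2.34 and 0.821. At 4 h they were 4.94, 4.85, 9.62 and 7.8, so that every 4 h sample lay above every earlier one. At 8 h they had reached 115, 93.7, 153 and 128. The 16 h samples were close together, at 289, 306, 284 and 317, whereas the 24 h samples fell apart by set, at 215 and 241 in replicates 1 and 2 and 323 and 320 in replicates 3 and 4. At 48 h they stood at 322, 379, 449 and 415, and at 96 h at 515, 571, 699 and 737. The time points from 4 h on thus overlapped with no earlier one, except for 16, 24 and 48 h, of which 24 h overlapped with both others. Replicates 3 and 4 lay above replicates 1 and 2 at 4, 8, 24, 48 and 96 h.

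On the log2(normalized count + 1) scale, *Foxa2* was higher than at 0 h by 2.32 at 4 h (SE 0.32, limma adjusted p = 7.4e-07), by 6.33 at 8 h and by 8.69 at 96 h (adjusted p = 1.4e-20). At 2 h the difference of 0.56 did not pass the FDR (adjusted p = 0.18). The pooled reads gave a ratio of 1251 between 96 h and 0 h, with a 95% counting interval of 346 to 10337 that is wide because it rests on 2 reads at 0 h. The largest step of *Foxa2* was from 4 to 8 h, a difference of 4.01 (SE 0.32, adjusted p = 1.6e-10). From 8 to 16 h it rose by a further 1.30 (adjusted p = 0.0047), a pooled ratio of 2.41. The differences of -0.14 from 16 to 24 h and 0.52 from 24 to 48 h did not pass the FDR (adjusted p = 0.80 and 0.18). The latter did pass with a pseudocount of 4, the deposited values, limma-voom and a fit of these time points alone (limma adjusted p between 0.0016 and 0.080). The last step, 0.68 from 48 to 96 h, passed it narrowly (adjusted p = 0.079), and it no longer passed when the replicate sets were averaged (adjusted p = 0.19), in replicates 1 and 2 alone, with a pseudocount of 0.5 or with no filter (0.14 to 0.19). Nor did it pass without replicate 1 or 2 at 48 h or without replicate 3 or 4 at 96 h (adjusted p between 0.13 and 0.18). The call at 4 h rests on few reads, and the difference was 1.20 with a pseudocount of 4 and 1.52 with the deposited values, both under the threshold.

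*Foxa1* had a short peak. Its normalized counts were 0, 0.679, 1.61 and 0 at 0 h, 3 reads in all, and 1.04, 0.755, 0 and 4.92 at 2 h. At 4 h they were 4.94, 4.85, 8.02 and 12.1 and at 8 h 10.2, 8.93, 6.22 and 16, which overlap. The 16 h samples, at 47.8, 52.9, 43.9 and 44, stood above every sample of every other time point. At 24 h the values had come down to 16.8, 20.7, 26.4 and 26.9, still above all samples at 8 h and at 48 h. At 48 h they were 4.71, 3.77, 1.76 and 5.16, and at 96 h 2.12, 0, 3.77 and 0.945, within the range of the 2 h samples. The 48 and 96 h samples overlapped.

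On the log2 scale the rise of *Foxa1* over 0 h was 2.47 at 4 h (SE 0.46, limma adjusted p = 6.5e-05), 2.90 at 8 h and 5.05 at 16 h (adjusted p = 1.7e-10). It was 4.01 at 24 h and 1.68 at 48 h (adjusted p = 0.0018), the latter under the threshold of 2, and 0.68 at 96 h, which did not pass (adjusted p = 0.18). The pooled reads at 48 h gave a ratio of 5.01 to 0 h (95% counting interval 1.40 to 27.2), from 14 reads against 3, and the 48 h rise would be called with a pseudocount of 0.5 (2.21) and in replicates 1 and 2 alone (2.01). The rises at 4 and 8 h were not called with a pseudocount of 4 (1.30 and 1.62) or with the deposited values (1.62 and 1.93). From 8 to 16 h *Foxa1* rose by 2.15 (adjusted p = 0.0012), a ratio of 4.52 in pooled reads (95% counting interval 3.33 to 6.22). From 16 to 24 h the difference of -1.04 missed the FDR narrowly (adjusted p = 0.105) although the samples did not overlap. It passed with a pseudocount of 4, the deposited values, limma-voom, a fit of these time points alone and replicates 1 and 2 alone (limma adjusted p between 0.0013 and 0.054). From 24 to 48 h *Foxa1* fell by 2.33 (adjusted p = 9.5e-05). The rise from 8 to 16 h was under the threshold without replicate 3 at 8 h (1.96), with a pseudocount of 4 (1.88) and with the deposited values (1.79), and the fall from 24 to 48 h was under it in replicates 1 and 2 alone (-1.91), with a pseudocount of 4 (-1.77) and with the deposited values (-1.70). The difference of -0.9998 from 48 to 96 h passed the FDR (adjusted p = 0.073), but not without replicate 1, 2 or 4 at 48 h or without replicate 2 or 4 at 96 h (adjusted p between 0.12 and 0.31), and not with a pseudocount of 4, with no filter, in a fit of these time points alone or in replicates 3 and 4 alone (0.12 to 0.62).

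The balance between *Foxa1* and *Foxa2* was measured as the share of *Foxa1* in the sum of both, each per kb of exon. It was computed from 8 h on, because at 4 h the lowest sum was 9.69 normalized counts, under the minimum of 10. The 8 h samples had a share of 5.82% ± 2.23 (SD, n = 4), the 16 h samples 10.1% ± 0.853 and the 24 h samples 5.54% ± 0.206. It then came to 0.723% ± 0.325 at 48 h and 0.192% ± 0.176 at 96 h. The steps from 8 to 16 h, 16 to 24 h and 24 to 48 h each separated all samples (two-sided exact permutation test of 4 against 4, p = 0.0286 each, which is the smallest p this design allows, and 0.0381 after Benjamini-Hochberg adjustment over 4 steps). The step from 48 to 96 h did not pass (exact permutation test, p = 0.0857). From 8 h on *Foxa1* was thus a minor part of the sum, with its highest share at 16 h. At 4 h, left out for its few reads, the means were closer, at 2.25 normalized counts per kb for *Foxa1* and 2.87 for *Foxa2*.

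*Foxa3* was the FOXA gene with reads in every sample. The 0 h samples had 20.7, 18.3, 13.7 and 17 normalized counts, the 2 h samples 15.6, 14.3, 16.4 and 14.8, and the 4 h samples 12.9, 17, 20.8 and 19.9. These time points overlapped. At 8 h the sets differed, with 31.4 and 33 in replicates 1 and 2 and 21 and 21.3 in replicates 3 and 4, all above every earlier sample. The 16 h samples had 60, 52.9, 57.9 and 53.5, the 24 h samples 84.1, 79.5, 71.1 and 54.6, and the 48 h samples 66, 58.4, 61.6 and 53.7. At 96 h they were back at 17, 24.2, 15.1 and 11.3, overlapping with the 0 h samples.

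No change of *Foxa3* against 0 h was called. On the log2 scale it was 0.57 at 8 h (SE 0.20, limma adjusted p = 0.022), 1.64 at 16 h, 1.99 at 24 h (adjusted p = 9.7e-10) and 1.73 at 48 h, and -0.08 at 96 h (adjusted p = 0.75). The 8 h difference did not pass the FDR with the replicate sets averaged or in replicates 3 and 4 alone (adjusted p = 0.18 each). At 24 h the pooled reads gave a ratio of 4.20 (95% counting interval 3.22 to 5.55). The log2 difference there lies just under the threshold of 2, and it was 2.01 in replicates 1 and 2 alone, 2.02 with a pseudocount of 0.5, 2.03 with limma-voom, and between 2.02 and 2.11 without replicate 1 or 2 at 0 h or without replicate 4 at 24 h, which would be called. From 4 to 8 h *Foxa3* rose by 0.56 (adjusted p = 0.064; 17.1% of all genes passed the FDR), a difference of 0.05 in replicates 3 and 4 alone. It did not pass without replicate 1 or 2 at either time point, nor with limma-voom, with no filter, in a fit of these time points alone or with the sets averaged (adjusted p between 0.12 and 0.48). From 8 to 16 h it rose by 1.07 (adjusted p = 0.00031; 20.0% of all genes), and from 48 to 96 h it fell by 1.81 (adjusted p = 1.5e-08), to 0.279 of the 48 h level in pooled reads (95% counting interval 0.207 to 0.370).

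The make-up of the FOXA transcript pool changed with these courses. Per kb of exon, *Foxa3* made up 94.5% ± 5.19 (SD, n = 4) of the 3 genes at 0 h and *Foxa2* 3.31% ± 4.19, the latter from 2 reads. At 4 h the shares were 63.5% ± 5.08 for *Foxa3*, 20.6% ± 2.93 for *Foxa2* and 15.9% ± 4.11 for *Foxa1*. By 8 h *Foxa2* held 75.6% ± 7.10, and from 8 to 24 h its mean share stayed between 72.7% and 75.6% while the sum of the 3 genes went from 67.9 ± 7.55 to 158 ± 19.6 normalized counts per kb. At 48 h *Foxa2* held 84.2% ± 2.85 and at 96 h 96.7% ± 1.26, when the sum was 275 ± 42.5 per kb and *Foxa3* was down to 3.14% ± 1.31.

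**Figure D2:**
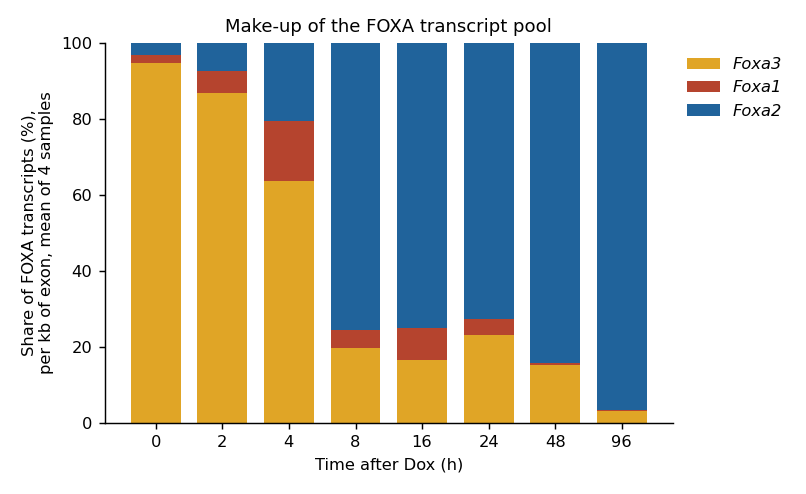
Share of each FOXA gene in the summed FOXA transcripts (y axis, %, normalized counts per kb of exon, mean of 4 samples) at each time after Dox (x axis, h, evenly spaced categories). *Foxa3* makes up 94.5% at 0 h and *Foxa2* 96.7% at 96 h, and the share of *Foxa1* is highest at 4 h.

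*Hnf4a* came later than the FOXA genes. Its normalized counts were 2.76, 8.83, 7.25 and 7.55 at 0 h and 3.12, 3.77, 0 and 0.821 at 2 h. They were 1.98, 0, 0.802 and 1.73 at 4 h and 0.786, 1.79, 2.33 and 1.52 at 8 h, so that all samples at 4 and 8 h lay below all samples at 0 h. At 16 h they stood at 7.83, 8.96, 14.6 and 10.4, above every 8 h sample but overlapping with 0 h. The 24 h samples split by set, at 92.5 and 90.1 in replicates 1 and 2 and 173 and 172 in replicates 3 and 4, a ratio of 1.89 between the set means. At 48 h the values were 787, 748, 804 and 862, the highest of the course, and at 96 h they were 318, 348, 363 and 311, below every 48 h sample and above every 24 h sample.

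The early dip of *Hnf4a* passed the FDR but was not called, with log2 differences against 0 h of -1.55 at 2 h (SE 0.38, limma adjusted p = 0.0019), -1.87 at 4 h and -1.49 at 8 h (adjusted p = 0.0022). It rests on 28 reads in all at 0 h and 9, 5 and 8 reads at 2, 4 and 8 h, and the pooled reads gave ratios to 0 h of 0.185 at 4 h (95% counting interval 0.0558 to 0.486) and 0.227 at 8 h (0.0894 to 0.511). The 2 h difference was -0.46 in replicates 1 and 2 alone (adjusted p = 0.44) and -2.64 in replicates 3 and 4 alone, and the 4 h difference was called with a pseudocount of 0.5 (-2.26) and with limma-voom (-2.05), and without replicate 1 at 0 h or replicate 1 or 4 at 4 h (-2.03 to -2.18). At 16 h the difference of 0.65 from 0 h did not pass (adjusted p = 0.17).

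From there *Hnf4a* was called higher at 24 h (4.15, adjusted p = 1.6e-10), at 48 h (6.81, adjusted p = 8.0e-16) and at 96 h (5.55, adjusted p = 6.3e-14). The pooled reads gave a ratio of 114 between 48 h and 0 h (95% counting interval 78.9 to 172). Its rise ran over 3 called steps in a row, 2.14 from 8 to 16 h (SE 0.38, adjusted p = 0.00018), 3.50 from 16 to 24 h and 2.66 from 24 to 48 h. The first of these was 1.35 with a pseudocount of 4, 1.37 with the deposited values, and 1.97 both without replicate 1 of the 8 h samples and without replicate 3 of the 16 h samples, all under the threshold. From 48 to 96 h *Hnf4a* fell by 1.25 (adjusted p = 0.0080), to 0.413 of the 48 h level in pooled reads (95% counting interval 0.387 to 0.442).

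*Hnf4g* had 0 reads in each of the 32 samples. Over 268272673 reads on genes a count of 0 allows up to 3 reads, or 1.12e-06% of them, and at 48 h, where *Hnf4a* was highest, 0 reads in the 4 samples allow a mean of up to 0.811 normalized counts. The label of an endoderm factor was therefore not borne out by a measured level for *Hnf4g* here, and with no *Hnf4g* read the share of *Hnf4a* in the HNF4 sum could not be tested. These intervals and floors account for counting error alone, because reads copied by PCR were not marked.

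**Figure D3:**
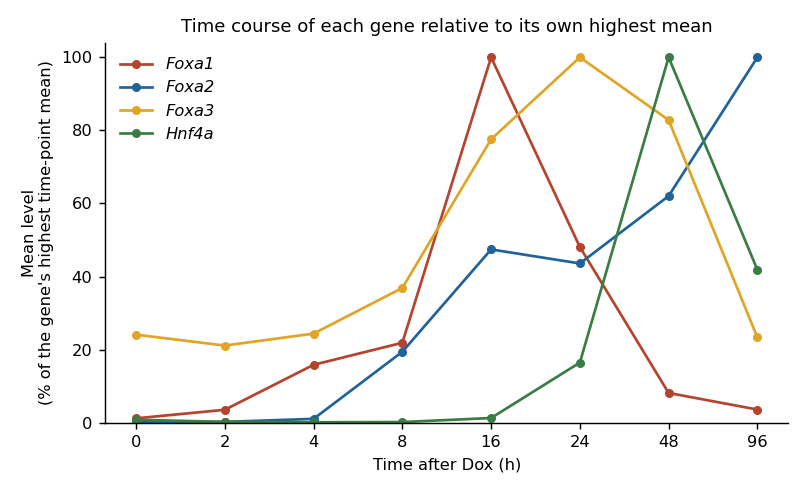
Mean normalized count of *Foxa1*, *Foxa2*, *Foxa3* and *Hnf4a* (y axis, % of the highest time-point mean of the same gene, n = 4 per point) against hours after Dox (x axis, evenly spaced categories). At 16 h *Foxa1* is at 100%, *Foxa3* at 77.6%, *Foxa2* at 47.4% and *Hnf4a* at 1.31%, and at 96 h *Foxa2* is at 100% and *Foxa1* at 3.62%.

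Relative to its own highest mean each gene kept a course of its own, as the plot of percentages shows. At 8 h *Foxa2* stood at 19.4% of its 96 h mean and *Hnf4a* at 0.201% of its 48 h mean. At 24 h *Foxa1* was down to 48.1% and *Foxa3* at its highest, whereas *Hnf4a* had reached 16.5%. At 96 h *Foxa3* was at 23.4%, close to the 24.1% at which it began, and *Hnf4a* at 41.9%. In the order of the means, *Foxa1* at 16 and 24 h, *Foxa2* at 96, 48, 24, 8 and 4 h, *Foxa3* at 16 and 8 h and *Hnf4a* at 48, 96 and 24 h were each separated without overlap from the next lower time point. The remaining neighbours in each order overlapped.

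Per kb of exon, which allows levels of different genes to be compared, *Foxa2* at 48 h (165 ± 22.8 normalized counts per kb, SD, n = 4) and *Hnf4a* at 48 h (166 ± 9.79) were nearly the same. At 96 h *Foxa2* was at 266 ± 44.2 and *Hnf4a* at 69.4 ± 5.06. The highest means of *Foxa3*, 35.5 ± 6.36 at 24 h, and of *Foxa1*, 14.2 ± 1.28 at 16 h, were lower.

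The genes with the courses most like each member were found by Pearson's correlation of mean log2(normalized count + 1) over the 8 time points, among 4775 genes whose means spanned at least 2 on this scale. These are descriptions, since the points of all genes come from the same libraries. For *Foxa1* they were *Fam43b* (r = 0.974), *Capn12* (0.964) and *Gypc*, the red cell glycophorin C (0.961), each highest at 16 h, with *Gypc* at 43.7 ± 7.04 normalized counts there. For *Foxa2* they were *Sox17*, a SOX factor of endoderm (r = 0.992), *Npl* (0.985) and *Gdpd5* (0.983). *Sox17* went from 4.89 normalized counts at 0 h to 1511 ± 167 at 96 h. For *Foxa3* they were *Adcyap1r1*, the receptor of the peptide PACAP (r = 0.984), *Trib2* (0.975) and *Erich4* (0.974), each highest at 24 h. For *Hnf4a* they were *Itpr2*, a calcium channel of the endoplasmic reticulum (r = 0.996), *Rin2* (0.995) and *Rbm47* (0.994), each highest at 48 h. Among the members themselves, r was 0.526 between *Foxa1* and *Foxa2*, 0.707 between *Foxa2* and *Hnf4a* and -0.0299 between *Foxa1* and *Hnf4a*.

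Next to *Foxa2*, at 2674 bp on the same strand, lies the lincRNA *9030622O22Rik*. It had no reads at 0, 2 and 4 h and 1 read at 8 h, when *Foxa2* had 617. The 16 h samples had 5.87 ± 1.47 normalized counts of it (SD, n = 4), the 24 h samples 14.4 ± 5.74, the 48 h samples 65.2 ± 11.1 and the 96 h samples 86.8 ± 12.0. It thus became countable after *Foxa2*. *Hnf4aos* overlaps *Hnf4a* on the opposite strand and had at most 1 read in any sample. The libraries were stranded, but the strand setting of the count is not given in the sources used here.

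Genes that HNF4A or FOXA proteins are known to bind and switch on in liver or visceral endoderm were examined as a list of 33. Of these, 9 passed the filter and 6 had no reads in any sample. At 48 h against 0 h, 7 of the 9 were called higher and 2 lower, where 8.48% and 7.09% of all genes were called. Their median log2 change was 3.53, beside -0.02 over all tested genes. *Ttr*, *Fgb*, *F2*, *Pklr* and *Rbp4* had means below 10 at 0 h and passed the filter through later time points at which they were high, so the count and the median describe the genes that passed and are no support for a change of the list. The same holds for genes with few reads at 0 h in the lists that follow. *Mttp*, which loads lipid onto apolipoprotein B, went from 24.0 ± 5.48 to 856 ± 122 normalized counts, a log2 change of 5.11 (SE 0.21). *Fgb*, a chain of fibrinogen, had no reads at 0 h and 29.2 ± 14.3 at 48 h. *Apom*, an apolipoprotein of HDL, went from 18.2 ± 3.72 to 500 ± 91.2 (4.71, SE 0.26). The others called higher were *Ttr*, the carrier of thyroxine, *Pklr*, the liver pyruvate kinase, *F2*, prothrombin, and *Rbp4*, the carrier of retinol.

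Of the same list, *Apoa2*, an apolipoprotein of HDL, was called lower at 48 h, from 158 ± 57.7 to 5.44 ± 1.14 normalized counts, a log2 change of -4.58 (SE 0.24). *Tat*, the tyrosine aminotransferase of liver, was called lower, with a log2 change of -2.77 (SE 1.26, limma adjusted p = 0.053), from 28.6 ± 32.7 to 0.752 ± 0.981, with a spread at 0 h as large as its mean. At 24 h, when *Hnf4a* was already called higher than at 0 h, 1 of the 9 was called higher and 1 lower (4.85% and 4.34% of all genes). At 8 h, when *Foxa2* was, 1 was called higher and 0 lower (3.4% and 1.31%), and at 96 h the counts were 6 and 2 (9.28% and 10.3%). The FDR alone was passed at 24 h by 4 of the 9 upward and 1 downward, beside 61.8% of all genes in either direction. Those upward were *Fgb*, which was called, *Mttp* (1.67, limma adjusted p = 4.7e-08), *Pklr* (1.47, 0.013) and *Apom* (1.45, 1.8e-05). Albumin, *Alb*, had at most 1 read in any sample and *Afp*, alpha-fetoprotein, a mean of 4.15 normalized counts at 96 h, its highest. Both remained under the filter, as did *Apob* and *Apoa1*.

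**Figure D4:**
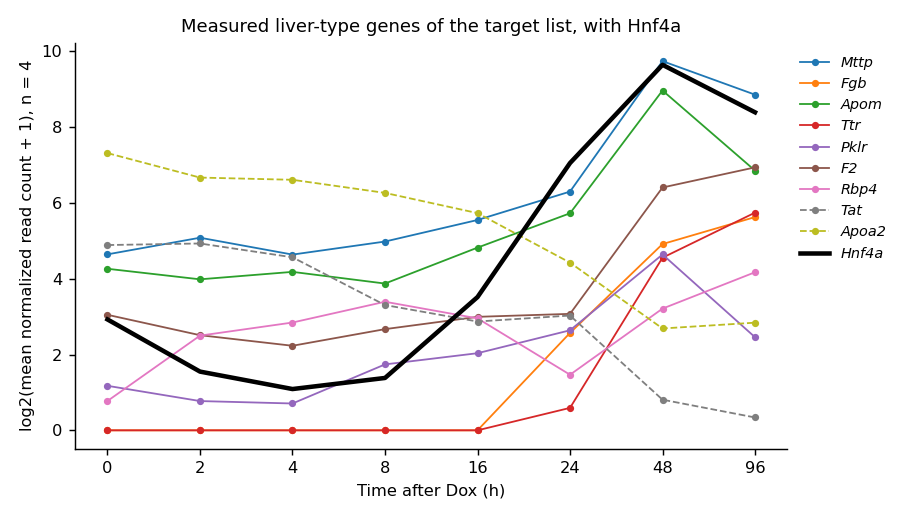
log2(mean normalized count + 1) (y axis, n = 4 per point) of the 9 tested genes of the list of known HNF4A or FOXA targets and of *Hnf4a* (thick black line) against hours after Dox (x axis, evenly spaced categories). Solid lines are the 7 genes called higher at 48 h against 0 h, dashed lines are *Apoa2* and *Tat*, called lower, and *Mttp*, *Apom* and *Pklr* are highest at 48 h like *Hnf4a*, whereas *Ttr*, *Fgb*, *F2* and *Rbp4* are highest at 96 h.

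Other transcription factors of liver and endoderm were examined as a list of 17, of which 12 passed the filter. At 48 h 7 were called higher and 1 lower, where 8.48% and 7.09% of all genes were called. The median log2 change of the 12 was 2.60, beside -0.02 over all tested genes. *Gata6*, whose transgene was induced, rose by 9.83 and *Gata4*, the relative of *Gata6*, by 7.77 (SE 0.30). *Sox17*, *Sox7*, *Prox1* and *Cebpa* were also called higher. *Nr5a2*, a nuclear receptor expressed in ES cells and liver, was called lower, with a log2 change of -5.60 (SE 0.26), from 814 ± 36.0 to 16.6 ± 6.21 normalized counts.

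Among the 41 other forkhead genes, 22 passed the filter. At 48 h 4 were called higher and 5 lower (8.48% and 7.09% of all genes), with a median of 0.24. *Foxq1* had no reads at 0 h and 1582 ± 107 normalized counts at 48 h, above *Foxa2* at 391 ± 54.1. *Foxf2* rose by 6.52 (SE 0.42) and *Foxf1* by 3.44 (SE 0.43), and *Foxj2* was also called higher. *Foxd1* fell by 4.54, *Foxd3*, a factor of ES cells and Epi, by 4.23 and *Foxo6* by 3.17, and *Foxn4* and *Foxp1* were called lower as well. Of the 10 other genes of the NR2 group, to which HNF4 receptors belong, 6 passed the filter and 0 were called at 48 h in either direction, while 3 passed the FDR upward and 1 downward, beside 73.4% of all genes in either direction. *Nr2f2* was called at 96 h, when it stood at 70.2 normalized counts against 6.11 at 0 h.

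Markers of the cell types that the culture could hold moved beside these genes. Of 14 PrE markers, all were called higher at 48 h (8.48% of all genes), with a median of 8.68. The largest rises were those of *Cubn*, an endocytic receptor of visceral endoderm (12.35), *Dab2*, an endocytic adaptor (10.71), and *Col4a1*, a basement membrane collagen (10.18). Of 10 ES cell markers, 6 were called lower and 0 higher (7.09% and 8.48% of all genes), led by *Prdm14* (-5.37), *Nanog* (-4.78) and *Klf2* (-4.45). The FDR was passed by 9 of them downward, among them *Pou5f1* by only -0.55, and by 1 upward, *Tbx3* (0.96, limma adjusted p = 6.0e-06). The lists of PrE markers and of endoderm factors share *Gata4*, *Gata6*, *Sox17* and *Sox7*.

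FOXA2 also marks mesendoderm and the node, so markers of these were examined. Of 9, 4 passed the filter, and at 48 h 0 were called higher and 1, *T*, lower (8.48% and 7.09% of all genes). The log2 change of *T* was -6.31 (from 235 ± 216 normalized counts at 0 h). *Cxcr4*, a chemokine receptor, passed the FDR upward at 48 h without being called (1.64, limma adjusted p = 0.00013), from 11.1 ± 5.51 to 34.9 ± 7.68, and was at 3.75 ± 2.51 at 96 h. *Eomes*, a T-box factor, differed by -0.60 and *Chrd*, a BMP antagonist, by -0.19 at 48 h. Their summed level was 327 to 834 at 0 h, 154 to 220 at 8 h, 224 to 286 at 48 h and 105 to 149 at 96 h, and *Noto* and *Shh*, which define the node, stayed at or below a mean of 1.39 normalized counts at 0, 48 and 96 h. Of 6 trophoblast markers, 5 passed, and at 48 h 2 were called higher and 0 lower (8.48% and 7.09% of all genes). Those called were *Hand1*, higher by 5.46, and *Gata3*, by 4.00. *Tfap2c* (-1.17) and *Eomes* passed the FDR downward (limma adjusted p = 0.0035 and 0.015), and *Cdx2* did not pass it (adjusted p = 0.26). The summed level of the 6 trophoblast markers was 658 to 720 at 0 h, 154 to 184 at 16 h and 385 to 605 at 48 h. *Eomes* is in this list and in that of mesendoderm and node. At 0 h *Tfap2c* had a mean of 398 and *Eomes* of 263 normalized counts, where the mean sum of the trophoblast markers was 688. The part of these markers in the levels of the FOXA and HNF4 genes was not tested.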

How the data were processed

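RNA was isolated with Trizol from 4 replicates at each of 8 time points, and poly(A) libraries were prepared with a stranded kit and sequenced as single-end reads. Per the labels, the reads were trimmed (cutadapt 2.7), aligned (HISAT2 2.1.0, build GRCm38.p6) and counted per gene (featureCounts of Subread 1.6.4). The deposited table holds log2 values, which the authors made from size-factor-normalized counts by a variance stabilizing transformation, with an added row for the transgene. The strand setting of the count is not given in the sources used here.

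The transformation was inverted from the lowest deposited value (1.58), which gave normalized counts. When these were divided by the smallest step in the sample, 100% of the values came out as whole reads, within 1e-06 of a whole number. The filter on low values left 15227 genes, whose log2(normalized count + 1) values in all 32 samples entered 1 fit in limma 3.58.1 (R 4.3.3), as described beside the results. The pseudocount shrinks the fold changes of genes with few reads. Shares were compared with exact permutation tests in scipy 1.17.1. A test on simulated data of the same size recovered all or nearly all of the changes, which were put only into genes with higher means. It held no replicate sets and no changes in genes with few reads. Calls that rest on few reads were therefore not tested by it.

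The time points came from the sample titles. The genes and lists were chosen with earlier results of these data known. The named genes are all 5 members, the 3 largest rises and 3 largest falls at 48 h among the called genes of each list, and the 3 genes most correlated with each member. A result that this rule would name is not reported here. Other genes (*Hnf4aos*, *9030622O22Rik*, *Alb*, *Afp*, *Apob*, *Apoa1*, *Nr2f2*, *Noto*, *Shh*, *Cxcr4*, *Eomes*, *Chrd*, *Tfap2c*, *Cdx2*, *Tbx3*, *Pou5f1*, *Lamc1* and further called members of small lists) were chosen after their values were seen. Alternatives covered the pseudocount, the filter, TMM factors, the deposited values without inversion, limma-voom, the replicate block, the replicate sets, the samples in the fit, the FDR and leaving out each replicate. Figures were drawn with matplotlib 3.10.9.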

Additional observations from a re-analysis of the deposited data

Results flagged for a closer look

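A sample was marked when its gap to the nearest of the other 3, divided by the range of its group, was above Dixon's 95% critical value, which chance gives in about 1 of 20 groups. Of 115 groups whose values are reported and differ among samples, 10 were marked, and 0 of the 32 groups of *Foxa1*, *Foxa2*, *Foxa3* and *Hnf4a*. In 7 of the 10 the marked sample held the only reads of its group. These were *9030622O22Rik* in replicate 1 at 8 h (0.786 normalized counts), *Hnf4aos* in replicate 4 at 4 h (0.867), replicate 3 at 8 h (0.778), replicate 3 at 16 h (0.666) and replicate 4 at 24 h (0.815), *Foxf2* in replicate 3 at 0 h (1.61), and *Hand1* in replicate 2 at 0 h (0.679). The other marked values were *Gata4* in replicate 3 at 0 h (39.5, next highest 22.7), *Prdm14* in replicate 2 at 48 h (18.8, next highest 8.26) and *Capn12* in replicate 1 at 16 h (27.0, next highest 19.6).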

How the results depend on the processing

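The rise of *Foxa2* from 8 h on, of *Foxa1* at 16 and 24 h and of *Hnf4a* from 24 h on was called under every alternative that tested the gene, the low counts of *Foxa1*, *Foxa2* and *Hnf4a* limiting the calls at the other times. A filter on a mean of at least 50 left out *Foxa1* and *Foxa3*. With a pseudocount of 4 and with the deposited values, the members called higher were 0 at 4 h, 1 at 8 h and 0 from 8 to 16 h, and 0 were called lower from 24 to 48 h. With the mean filter they were 1 at 4, 8 and 16 h, 1 from 8 to 16 h, and 0 lower from 24 to 48 h. With a pseudocount of 0.5 and with limma-voom, 2 were called higher from 2 to 4 h and 1 lower at 4 h against 0 h. In replicates 3 and 4 alone, 1 was called higher from 2 to 4 h, and 1 lower at 2 h against 0 h and from 48 to 96 h. In replicates 1 and 2 alone, 0 were called lower from 24 to 48 h. Leaving out 1 sample gave 0 to 1 called lower at 4 h against 0 h, 0 to 1 called higher from 2 to 4 h and 1 to 2 from 8 to 16 h.

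The sign of differences that did not pass the FDR turned in 13 of 1066 alternative values. For *Foxa3* against 0 h these were 0.027 at 2 h in replicates 3 and 4 alone, -0.0036 at 4 h with TMM factors, and -0.38 at 4 h and 0.055 at 96 h in replicates 1 and 2 alone. Without 1 sample the range was -0.096 to 0.14 at 4 h and -0.26 to 0.086 at 96 h. From 2 to 4 h, *Foxa3* was at -0.016 in replicates 1 and 2 alone, and *Hnf4a* at 0.72 in replicates 3 and 4 alone and between -0.75 and 0.0010 without 1 sample. From 16 to 24 h, *Foxa2* was at 0.10 in replicates 3 and 4 alone. Without replicate 4 at 0 h or replicate 1 at 2 h the 2 h rise of *Foxa2* passed the FDR, and without replicate 3 at 0 h or replicate 2 at 96 h so did the 96 h difference of *Foxa1* from 0 h (limma adjusted p between 0.013 and 0.075).

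Deviations from the time point means correlated across genes by 0.196 on average between same-numbered samples and by as much (0.196) between differently numbered samples of a set, and 75 of 112 pairs were over 0.1, so the replicate number is not taken as a pairing. With the replicate block no count of called members changed, and the fold changes kept their values, among them 8.69 for *Foxa2* at 96 h. Differences of *Foxa2* at 2 h against 0 h and from 24 to 48 h and of *Foxa1* from 16 to 24 h passed the FDR with the block (limma adjusted p = 0.085, 0.093 and 0.084). In the exact sign-flip test of 4 same-numbered pairs, which cannot go below p = 0.125, the share of *Foxa1* differed by 4.29, -4.57 and -4.82 percentage points in its first 3 steps (p = 0.125 each). Without 1 sample these differences were 3.29 to 5.08, -4.93 to -4.28 and -4.92 to -4.67 (p = 0.0571 each by exact permutation, the smallest that 3 against 4 allow). Shares from counts without length and with a pseudocount of 1 kept their side of the threshold. Counts over all genes moved by over 1.5 times in 65 of 338 alternative values, 25 of them with the mean filter, 15 with a pseudocount of 4 and 14 with the deposited values.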
